A study of Mus musculus with 34 samples.

Results

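The Sprouty and Spred genes make up a small family of ERK feedback inhibitors, and all 7 mouse members (*Spry1*, *Spry2*, *Spry3*, *Spry4*, *Spred1*, *Spred2* and *Spred3*) were taken by their GENCODE symbol from the bulk RNA-seq count table of the dorsal hippocampus. They are 7 of the 54532 genes in that table, and all 7 were among the 22018 genes that passed the filter on low counts. They were taken by symbol and not by a measured value, though earlier results of these data were known when they were chosen. The samples were 4 homecage (HC) mice and 4 mice trained in spatial object recognition (SOR), a task in which a mouse learns where objects stand in an open field. All 8 were male C57BL/6J mice without a transgene, aged 2 to 3 months, housed singly before the experiment, and each gave 1 library. SOR mice had 6 min of habituation and 3 training sessions and were euthanized 1 h after the last one; homecage mice were euthanized at the same time of day without training, so that handling in the arena, exploration and learning cannot be told apart. The question was which of these inhibitors differed in transcript level 1 h after training.

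Sprouty and Spred proteins restrain the pathway that runs from receptor tyrosine kinases through RAS, RAF and MEK to the kinase ERK. Both families share a cysteine-rich Sprouty domain at the C-terminus that brings them to the membrane. Sprouty proteins are phosphorylated on tyrosine after growth factor stimulation and bind adaptors such as GRB2 and the ubiquitin ligase CBL, whereas Spred proteins carry an EVH1 domain that binds neurofibromin, the RAS GTPase-activating protein encoded by *Nf1*, and hold it at the membrane. Transcription of several members is itself raised by ERK, which makes them delayed negative feedback. Loss of *SPRED1* in humans causes Legius syndrome, and mice without *Spred1* have been studied for hippocampal plasticity and spatial learning.

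The promoters of *Spred1*, the member that passed the test below, and of *Spry2*, the most abundant Sprouty, are shown because their log2 fold changes have opposite signs; both were chosen with those values known. The sequences are the 250 bases before the RefSeq start on GRCm38.p6, read 5′ to 3′ on the gene's strand, and capitals mark CpG dinucleotides. The *Spred1* window is chr2:117120821-117121070 on the plus strand, ahead of the GENCODE gene at 117121374 to 117182279, and the *Spry2* window is chr14:105896820-105897069 on the minus strand, next to the GENCODE gene at 105891947 to 105896819.
Spred1: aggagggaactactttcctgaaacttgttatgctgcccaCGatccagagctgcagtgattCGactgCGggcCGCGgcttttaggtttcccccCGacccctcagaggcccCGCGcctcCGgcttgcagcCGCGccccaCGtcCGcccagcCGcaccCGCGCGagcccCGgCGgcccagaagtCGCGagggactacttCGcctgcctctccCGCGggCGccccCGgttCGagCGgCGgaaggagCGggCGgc
Spry2: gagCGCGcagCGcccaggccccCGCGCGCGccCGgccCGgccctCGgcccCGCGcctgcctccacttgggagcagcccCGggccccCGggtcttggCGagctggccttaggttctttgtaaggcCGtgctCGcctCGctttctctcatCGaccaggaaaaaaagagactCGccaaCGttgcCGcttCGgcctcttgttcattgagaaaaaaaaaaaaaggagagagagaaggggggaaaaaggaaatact
The *Spred1* window held 31 CpG and had a GC content of 70.8%, and 94.8% of the 32817 promoter windows in the RefSeq table held fewer CpG. The *Spry2* window held 23 CpG at 62.4% GC, with 86.7% of windows below it, the same counts as in the *Spry1* window. The windows of *Spred2* and *Spred3* held 12 and 6 CpG, and the median window held 6; counted from the RefSeq start, these windows lie partly (*Spred2*, chr11:19924192-19924441) or wholly (*Spred3*, chr7:29168648-29168897) within the GENCODE gene. Windows were found for 5 of the 7 members, and those of *Spry3* and *Spry4* were not analysed here. Motifs of transcription factors downstream of neuronal activity and ERK were searched on both strands: the cAMP response element TGACGTCA, the EGR site GCGTGGGCG, the ETS site CCGGAAGT, the AP-1 site TGANTCA and the CArG box of SRF. They occurred in 1.55%, 0.536%, 2.88%, 6.75% and 1.47% of all windows, respectively, and in 0 of the 5 member windows, which says only that these letters are not in these 250 bases.

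Total counts per library lay between 51406011 and 81525977, and levels are given in CPM, the gene's count relative to the library's size after upper-quartile scaling. Each adjusted p below comes from edgeR's quasi-likelihood test of SOR against homecage and is adjusted by Benjamini and Hochberg's method across the 22018 tested genes. The median log2 fold change of all genes tested was -0.02, with SOR minus homecage as the direction throughout. Of the members, 1 of 7 (14.3%) passed an adjusted p of 0.05, and it was higher in SOR; over all genes tested 0.273% were called higher and 0.0363% lower. None of the 7 also passed the fold change of 1.4 that the study's methods set, against 0.173% of all genes tested. In 3 members (42.9%) every SOR library lay above every homecage library, against 2.98% of all genes tested. In 1 member (14.3%) every SOR library lay below every homecage library, against 3.96% of all genes tested. The median log2 fold change of the 7 members was 0.07, with 5 higher and 2 lower. With 4 libraries in each group, the exact two-sided permutation test over 70 assignments cannot give a p below 0.0286.

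**Figure D1:**
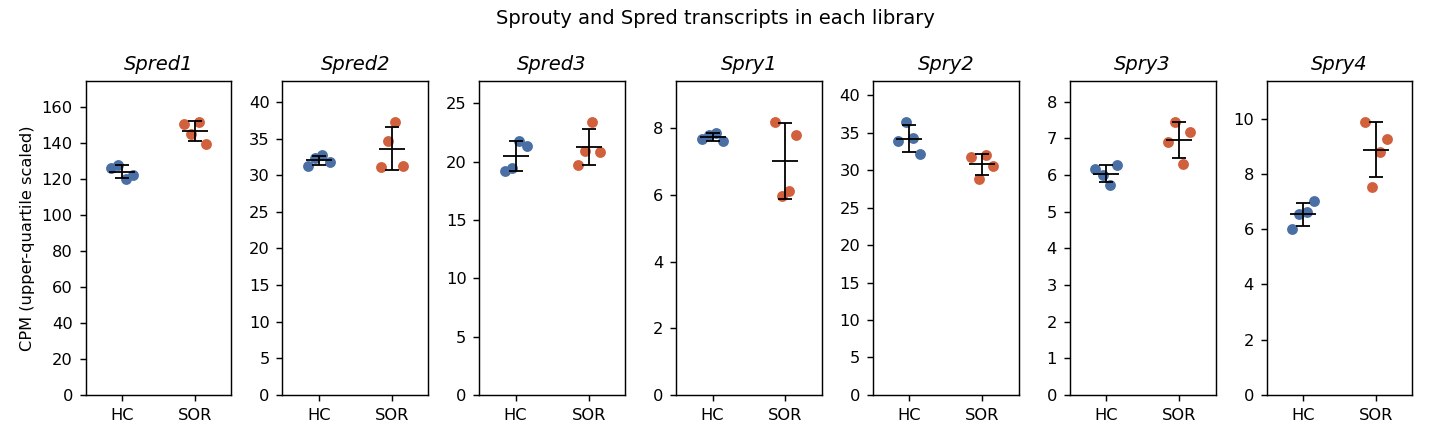
CPM of each member in each library, with 1 panel per gene, its own axis from 0, homecage (HC) libraries in blue, SOR libraries in orange and the mean with SD (n = 4) in black. The groups do not overlap for *Spred1*, *Spry2*, *Spry3* and *Spry4*, and the SOR libraries of *Spry1* spread on both sides of the homecage libraries.

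*Spred1* lies on chromosome 2 (GRCm38, 117121374 to 117182279, plus strand) and encodes the Spred that is best known as the partner of neurofibromin. The homecage libraries 1 to 4 held 126, 127.8, 119.6 and 122.3 CPM, and the SOR libraries 1 to 4 held 150.3, 145.1, 151.5 and 139.3 CPM. The lowest SOR library thus lay above the highest homecage library. *Spred1* rose from 123.9 ± 3.68 to 146.6 ± 5.56 CPM (SD, n = 4 each), a log2 fold change of 0.24 (SE 0.04, edgeR adjusted p = 0.0386). The fold change was 1.18, with a 95% interval of 1.11 to 1.26. It ranked 58th by p among the genes tested, and of the 68 genes past the threshold only 1 had a smaller absolute log2 fold change, the lowest being 0.22 and the median 0.55. The depth of *Spred1* was between 6702 and 11178 estimated counts per library, so that counting error was near 1.1% and the biological coefficient of variation was 4.94%, beside a median of 5.79% among the 3494 genes with a mean of 50 to 300 CPM. The call was lost when any one library except SOR replicate 4 was left out, with a log2 fold change between 0.23 and 0.26 and an edgeR adjusted p between 0.0823 and 0.172 in those 7 fits; without SOR replicate 4 the adjusted p was 0.0434. It was also lost with scaling by library size alone (log2 fold change 0.25, adjusted p = 0.0659).

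*Spred2*, which encodes a second EVH1-domain inhibitor of RAS and RAF signalling, lies on chromosome 11 (19924375 to 20024026, plus strand). Its homecage libraries held 31.2, 32.3, 32.7 and 31.9 CPM, and its SOR libraries held 31.1, 34.7, 37.3 and 31.3 CPM. SOR replicates 2 and 3 lay above all homecage libraries and the other two SOR libraries lay within or just below them. The means were 32.0 ± 0.657 and 33.6 ± 2.95 CPM (SD, n = 4 each), with a log2 fold change of 0.07 (SE 0.06, 95% interval -0.07 to 0.21, edgeR adjusted p = 0.775), and without SOR replicate 3 it was 0.02.

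*Spred3* encodes a Spred without the KIT-binding activity of its relatives and lies on chromosome 7 (29158829 to 29170411, minus strand), where it overlaps *Ggn* on the other strand, so that reads of the pair may not be separable if counting ignored strand. Homecage libraries held 19.2, 19.5, 21.8 and 21.4 CPM, and SOR libraries held 19.7, 20.9, 23.4 and 20.9 CPM. The groups overlapped across most of their range. The log2 fold change was 0.05 (SE 0.07, 95% interval -0.11 to 0.21, edgeR adjusted p = 0.861), and without SOR replicate 3 it was 0.00.

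*Spry4*, a Sprouty that acts on RAS and RAF activation, lies on chromosome 18 (38586247 to 38601415, minus strand) with 2 small RNA genes annotated on the other strand. It had the largest fold change of the family. Homecage libraries held 6.00, 6.54, 6.61 and 7.004 CPM, and SOR libraries held 9.88, 7.54, 8.78 and 9.27 CPM. Every SOR library lay above every homecage library, with SOR replicate 2 nearest to them. The means were 6.54 ± 0.415 and 8.87 ± 0.995 CPM (SD, n = 4 each), and the fold change was 1.36, with a 95% interval of 1.16 to 1.59. The log2 fold change of 0.44 (SE 0.10) had an unadjusted p of 0.0014, which ranked 216th, and an edgeR adjusted p of 0.143. The exact two-sided permutation test gave p = 0.0286, the smallest it can give. At 330 to 735 estimated counts per library, counting error alone was 4.34% to 4.89%, and the biological coefficient of variation was 11.9%. *Spry4* passed the threshold with DESeq2 (log2 fold change 0.46, adjusted p = 0.00295) and with 1, 2 or 3 factors of unwanted variation from RUVs, the correction that the study's methods name without its number of factors (adjusted p = 0.0413, 0.0122 and 0.0235, with a likelihood ratio test). It did not pass in the other 8 alternatives, among them the likelihood ratio test without such factors (adjusted p = 0.0676), TMM scaling (0.13) and limma-voom (0.142), nor in any of the 8 fits with a library left out (0.1 to 0.339).

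*Spry2*, which encodes the Sprouty best known as a partner of CBL and GRB2, lies on chromosome 14 (105891947 to 105896819, minus strand). Homecage libraries held 33.9, 36.4, 34.4 and 32.2 CPM, and SOR libraries held 31.7, 28.9, 32.0 and 30.6 CPM. Every SOR library lay below every homecage library, but SOR replicate 3 at 32.0 and homecage replicate 4 at 32.2 nearly met. The means were 34.2 ± 1.76 and 30.8 ± 1.43 CPM (SD, n = 4 each), with a log2 fold change of -0.15 (SE 0.06, 95% interval -0.28 to -0.03). The unadjusted p was 0.0207, the edgeR adjusted p was 0.398, and the exact two-sided permutation test gave p = 0.0286.

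*Spry3* is placed on the unplaced scaffold GL456233.1 (101352 to 106395, minus strand) in this build. Homecage libraries held 6.16, 5.99, 5.74 and 6.27 CPM, and SOR libraries held 6.89, 7.45, 6.29 and 7.18 CPM. The groups did not overlap, yet SOR replicate 3 and homecage replicate 4 differed by less than the counting error of a library, which averaged 4.88% and 5.08% in the SOR and homecage groups. The log2 fold change was 0.20 (SE 0.09, 95% interval 0.01 to 0.40), with an edgeR adjusted p of 0.483 and an exact two-sided permutation p of 0.0286.

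*Spry1*, a Sprouty with a known role in limiting growth factor signals during organ development, lies on chromosome 3 (37639947 to 37644598, plus strand) and overlaps the unconfirmed transcript *Gm42922* on the other strand. Its homecage libraries were within a narrow band, at 7.66, 7.79, 7.85 and 7.60 CPM. Its SOR libraries held 8.19, 5.95, 6.10 and 7.79 CPM. SOR replicates 2 and 3 were below every homecage library, SOR replicate 1 was above every one, and SOR replicate 4 was among them. The coefficient of variation was 16.4% in SOR and 1.49% in homecage libraries, while counting error was 4.90% and 4.49%; the homecage spread was therefore narrower than counting alone gives on average. The log2 fold change was -0.14 (SE 0.12, 95% interval -0.40 to 0.12, edgeR adjusted p = 0.745), and the exact two-sided permutation test gave p = 0.4. The log2 fold change ran from -0.07 without SOR replicate 2 to -0.23 without SOR replicate 1.

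**Figure D2:**
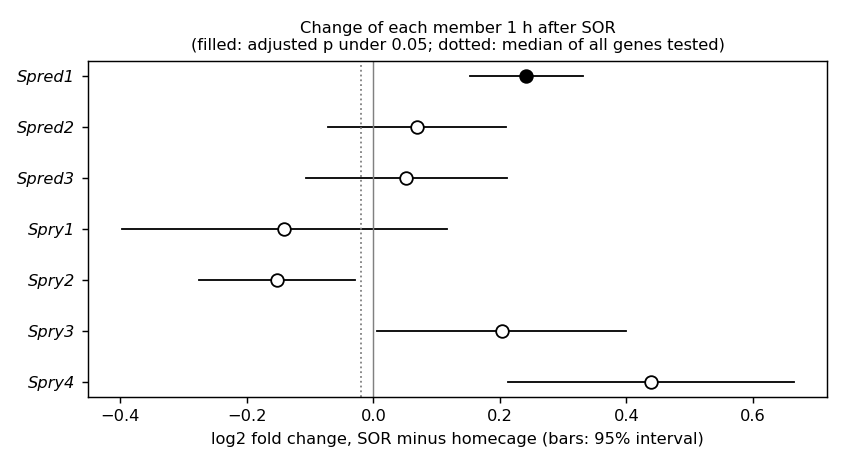
Log2 fold change of each member, SOR minus homecage, on the x axis, with lines for 95% intervals, n = 4 libraries per group, and a filled point where the edgeR adjusted p is under 0.05. *Spred1* alone is filled; the intervals of *Spry4* and *Spry3* lie above 0 and that of *Spry2* below 0, and those of *Spred2*, *Spred3* and *Spry1* span 0.

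Levels were compared between members per kb of exon, since the members' exon models run from 2.09 kb for *Spry2* to 6.78 kb for *Spred1*. *Spred1* was first at a mean of 19.9 CPM per kb over the 8 libraries, 1.28 times *Spry2* at 15.6 CPM per kb. *Spred2* followed at 7.10, *Spred3* at 3.35, *Spry1* at 2.54, *Spry4* at 1.62 and *Spry3* at 1.49 CPM per kb. Each gene was above the next in 8 of 8 libraries, apart from *Spry4*, which was above *Spry3* in 5 of 8, so that the last places cannot be ordered beyond their spread; *Spry1* was above *Spry4* within each library, although their ranges over all libraries met at 2.05 and 2.08 CPM per kb. *Spred1* and *Spry2* held 38.6% and 30.2% of the family's summed CPM per kb, and *Spry3*, the lowest, held 2.89%.

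**Figure D3:**
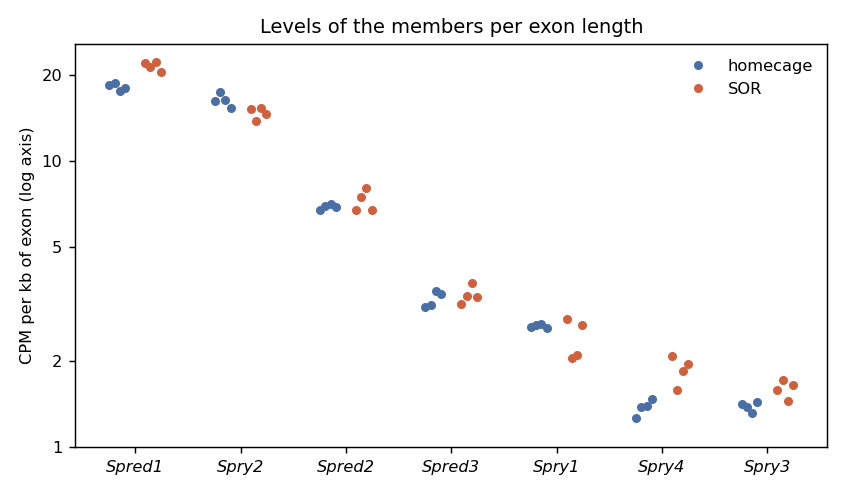
CPM per kb of exon on a log axis for the 7 members in order of their mean, with each of the 4 homecage libraries in blue and each of the 4 SOR libraries in orange. *Spred1* is above *Spry2* in all 8 libraries, by a wider margin in SOR, and the values of *Spry4* and *Spry3* overlap.

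The makeup of the family followed from these differences. The Spred genes held 56.9%, 55.9%, 56.3% and 57.5% of the summed CPM per kb in homecage libraries 1 to 4, and 59.7%, 62.7%, 62.2% and 59.5% in SOR libraries 1 to 4. Every SOR share was above every homecage share. The family's summed level overlapped between the groups, at 49.3 to 51.9 CPM per kb in homecage and 51.4 to 54.9 CPM per kb in SOR libraries. The ratio of *Spred1* to *Spry2* counts in the same library does not depend on how libraries are scaled. It was 3.71, 3.51, 3.48 and 3.804 in homecage libraries and 4.74, 5.02, 4.73 and 4.56 in SOR libraries, without overlap. The ratio of *Spred1* to *Spred2* counts was 3.65 to 4.04 in homecage and 4.07 to 4.83 in SOR libraries, and that of *Spry4* to *Spry1* was 0.783 to 0.922 and 1.19 to 1.44. These pairs were chosen after their values were seen, and the ratios are given without a test.

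The other genes of the pathway were taken from 7 lists that hold 108 genes beside the members, 106 of which were tested. Of these, 8 were called higher and 0 lower, where over all genes tested 0.273% were called higher and 0.0363% lower. The log2 fold change was above 0 in 57 and below 0 in 49, and it was above 0 in 43.8% of all genes tested. The median of the 106 was 0.01, beside -0.02 for all genes tested. These background values depend on the scaling. The share above 0 was 50.2% with TMM scaling, 50.7% with RLE scaling and 50.6% with DESeq2, each with a median of 0.00 over all genes. The counts of 57 and 49 hold for upper-quartile scaling and are not given for the others. At an unadjusted p under 0.05, 2213 of the 22018 genes passed.

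In the lists of ligands, receptors, RAS regulators and the cascade itself, no gene passed the quasi-likelihood test. Of 17 growth factor ligands tested 8 were higher and 9 lower, and their median log2 fold change was -0.02. Values ran from -0.67 for *Egf* (edgeR adjusted p = 0.213) to 0.43 for *Vegfa*, the vascular growth factor (adjusted p = 0.211). The ligand nearest to the threshold was *Ntf3* at -0.475 (edgeR adjusted p = 0.051), named here after its value was seen. Every SOR library of *Ntf3* lay below every homecage library. Among receptors, the 16 tyrosine kinases tested had a median of -0.07, with 5 higher and 11 lower, between -0.38 for the VEGF receptor *Kdr* and 0.27 for the EGF receptor *Egfr*. Of 20 adaptors and RAS regulators 9 were higher and 11 lower, with a median of -0.01, between -0.23 for the RAS GTPase-activating protein *Rasa1* and 0.18 for the exchange factor *Rasgrp2*. The 19 genes of the RAS, RAF, MEK, ERK and RSK cascade had a median of 0.00, with 10 higher and 9 lower, between -0.18 for *Rps6ka1* and 0.22 for *Rps6ka3*, both of which encode RSK kinases downstream of ERK. Calls appeared among the highest and lowest genes of these lists under other tests. *Egf*, *Kdr* and *Rasa1* were called lower and *Vegfa* higher with 1, 2 and 3 RUVs factors. *Rasa1*, *Vegfa* and *Rps6ka3* were also called with DESeq2, and *Vegfa* with the likelihood ratio test (adjusted p = 0.0485). The highest values of 2 lists depended on 1 library, since *Egfr* was at 0.13 without homecage replicate 2 and *Rasgrp2* at 0.03 without SOR replicate 3.

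Proteins that bind or modify Sprouty and Spred also gave no call. Of 12 partners 7 were higher and 5 lower, their median was 0.01 on the log2 scale, and values lay between -0.20 for the membrane scaffold *Cav1* and 0.34 for *Siah2*, a ubiquitin ligase that marks Sprouty proteins for degradation. *Nf1*, named here for its role after its value was seen, held 186.3 ± 5.16 CPM in homecage and 187.1 ± 14 CPM in SOR libraries (SD, n = 4 each), a log2 fold change of 0.01 (SE 0.05, edgeR adjusted p = 0.986). *Spred1* thus passed the test with all libraries, while no difference in the transcript of its neurofibromin partner was detected. The difference between both genes was not tested.

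Calls were found among the other inhibitors and the ERK-responsive transcripts, where over all genes tested 0.273% were called higher. The lists were chosen with earlier results of these data known. The paper already names *Fos*, *Arc* and *Dusp5* among the genes of its bulk RNA-seq, so that these calls are no separate result. It also names *Egr1* and *Junb* among genes higher after learning in its spatial data, so that their direction was known. Of the 9 other feedback inhibitors 6 were higher and 3 lower, the median log2 fold change was 0.23, and 3 were called higher. These were *Dusp5*, a nuclear ERK phosphatase, at 0.93, *Dusp6*, a cytoplasmic ERK phosphatase, at 0.58, and *Errfi1*, an inhibitor of the EGF receptor, at 0.56. *Dusp6* rose from 50.5 ± 2.51 to 75.3 ± 4.25 CPM (SD, n = 4 each, edgeR adjusted p = 0.00106), and *Errfi1* rose from 40.4 ± 0.676 to 59.4 ± 5.72 CPM (adjusted p = 0.00477). The lowest value was -0.99 for *Dusp9*, which averaged 0.281 CPM in homecage and 0.147 CPM in SOR libraries and had an adjusted p of 0.537. All 3 called inhibitors had larger log2 fold changes than *Spred1* at 0.24 and *Spry4* at 0.44, and these differences between genes were not tested. Of the 17 ERK-responsive transcripts 15 were higher and 2 lower, with a median of 0.16. The 5 called were *Fos* at 1.89, *Arc* at 1.42, *Egr1* at 1.09, *Junb* at 0.75 and the survival factor *Mcl1* at 0.30, and the lowest was *Btg2* at -0.06. The call of *Egr1* held in only 2 of 8 fits with a library left out, those without SOR replicate 1 or SOR replicate 3, and its edgeR adjusted p reached 0.1 in the others; those of *Fos*, *Arc*, *Junb*, *Mcl1*, *Dusp5*, *Dusp6* and *Errfi1* held in 8 of 8.

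**Figure D4:**
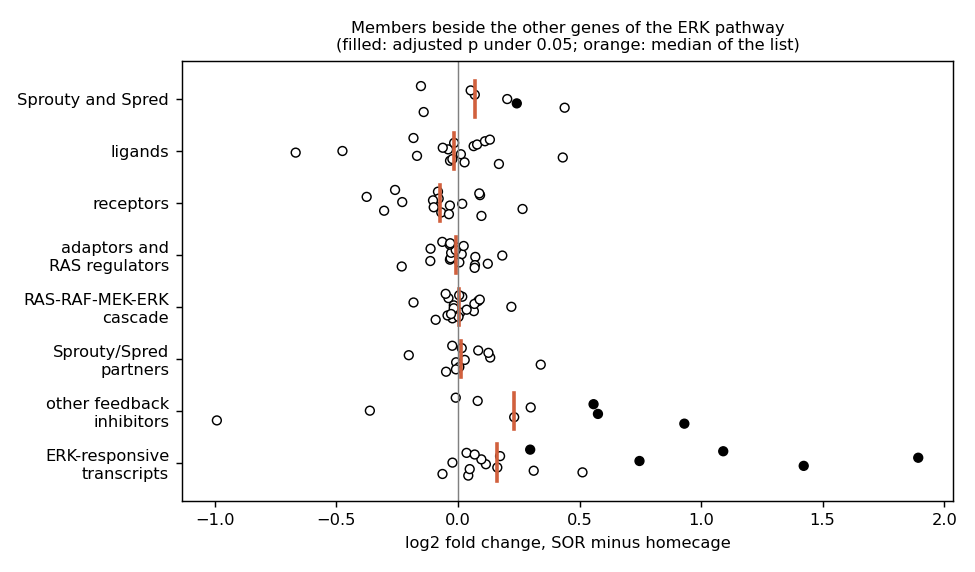
Log2 fold change, SOR minus homecage, on the x axis for the 7 members (top row) and for the tested genes of the 7 pathway lists, with filled points for an edgeR adjusted p under 0.05 and an orange line at the median of each list. Filled points appear for *Spred1*, for 3 of the other feedback inhibitors and for 5 ERK-responsive transcripts, and the rows from ligands to partners hold none.

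The 5 genes whose level was most like that of *Spred1* over the 8 libraries were found by Pearson's r of log2 CPM among 16351 other genes whose mean reached 1 CPM. They were *Gm26945*, a lincRNA (r = 0.976), *Homer1*, which encodes a postsynaptic scaffold (0.972), *Gimap6*, a GTPase gene of immune cells (0.971), *Gm37978*, an unconfirmed transcript (0.971), and *Thap2*, which encodes a zinc finger protein (0.971). The r is a description across 8 libraries that share the difference between the groups, and with each group centred on its mean it was 0.703 to 0.833. The centred r comes from the same 8 libraries by which the genes were chosen, so that the choice can raise it too. Since the choice by r favours genes that share the group difference of *Spred1*, their direction is no separate result; the log2 fold changes were 0.73 for *Gm26945*, 0.43 for *Homer1*, 0.39 for *Gimap6*, 0.81 for *Gm37978* and 0.21 for *Thap2*, and those of *Gimap6* and *Thap2* did not pass the test (edgeR adjusted p = 0.247 and 0.226).

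Markers of the cell types in the tissue were read beside these results, since fewer cells of a type and less RNA per cell cannot be told apart in bulk tissue. None of them passed the test. All 5 neuron markers and all 4 markers of CA1, a part of the labelled tissue, were present in each group. Their log2 fold changes were -0.02 to 0.00 and 0.00 to 0.11. All 7 oligodendrocyte markers were lower in SOR, the median of their log2 fold changes was -0.19, and their summed level was 5141 to 5608 CPM in homecage and 4207 to 5511 CPM in SOR libraries. Endothelial markers summed to 82.1 to 100.2 CPM and 92.2 to 95.5 CPM, with 3 of 4 higher, and blood markers to 94.6 to 123.2 CPM and 111 to 179.7 CPM, with 4 of 4 higher. The oligodendrocyte marker *Opalin* (log2 fold change -0.50, edgeR adjusted p = 0.164) and the endothelial marker *Cldn5* (-0.30, adjusted p = 0.199) had every SOR library below every homecage library. The same held for 3.96% of all genes tested. The paper reports *Opalin* as lower in both its bulk RNA-seq and its spatial data, with RUVs factors removed in the bulk test. Marker values with such factors removed are not given here. Astrocyte, microglia, precursor and dentate granule markers were higher in 2 of 5, 2 of 4, 1 of 4 and 1 of 4. Choroid plexus markers, which mark tissue at the edge of the dissection, were higher in 4 of 4, but their sum ran from 24.1 to 1061 CPM in homecage and from 39.7 to 3908 CPM in SOR libraries, with SOR replicate 1 highest. Without that replicate the log2 fold change of *Spred1* was 0.23 and that of *Spry4* 0.38, neither past the threshold (edgeR adjusted p = 0.0901 and 0.241). This is not particular to that library. The *Spred1* call was also lost without any other library except SOR replicate 4, and *Spry4* did not pass with all libraries either. The part of these cell types in the members' values was not tested.

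**Figure D5:**
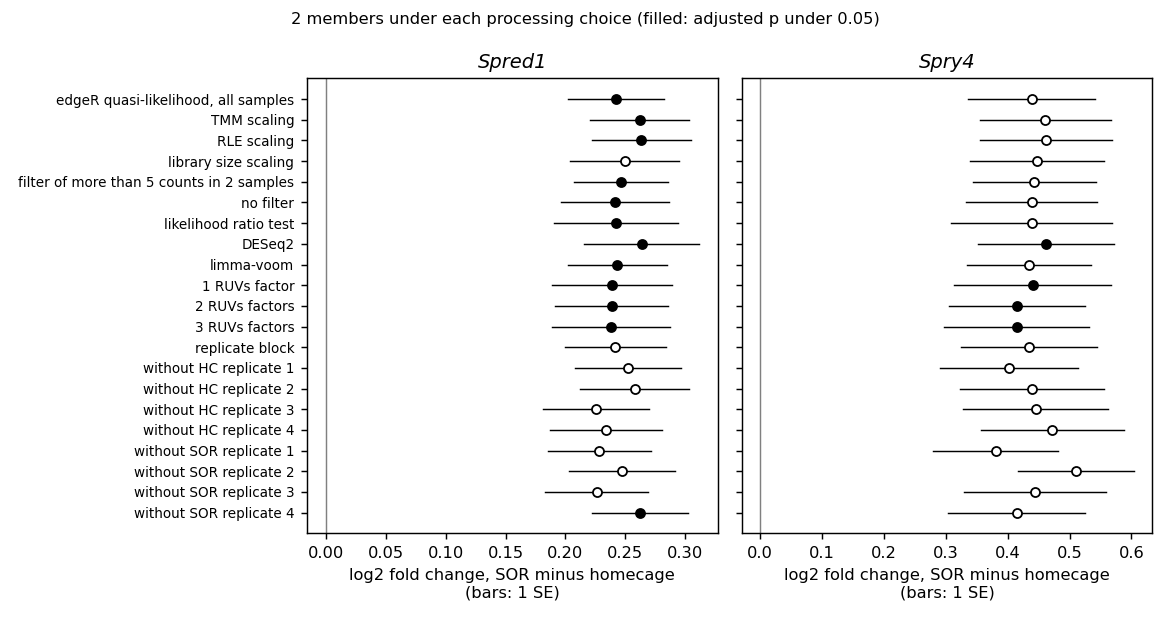
Log2 fold change of *Spred1* (left) and *Spry4* (right), SOR minus homecage, with bars of 1 SE, under each processing choice and with each library left out, filled where the adjusted p is under 0.05. All values lie above 0, between 0.23 and 0.26 for *Spred1* and between 0.38 and 0.51 for *Spry4*, while the side of the threshold changes with the choice.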

How the data were processed

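Bulk RNA-seq of the dorsal hippocampus was analysed for 4 homecage and 4 SOR libraries, 1 per mouse. The authors' methods name a total RNA kit with ribosomal RNA depletion, STAR and featureCounts within bcbio-nextgen, while the deposited labels name polyA RNA. The authors deposited estimated counts from tximport, 1 row per gene and without normalization, of which 52.5% are not whole numbers; the quantifier behind them is not given in the sources used here. The spatial, single-nucleus and chromatin samples were not used here.

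Estimated counts were rounded, filtered with filterByExpr and scaled with upper-quartile factors. Groups were taken from the labels. SOR was compared with homecage by edgeR's quasi-likelihood test (edgeR 4.0.16, R 4.3.3) without covariates, and p was adjusted over all 22018 genes tested. Standard errors were derived from the fold change and the F statistic. Counting error is the mean over libraries of the inverse square root of the count. Exon lengths and positions are those of GENCODE M21 on GRCm38, where 54495 of the 54532 genes were found; promoters are from RefSeq (GRCm38.p6). A planned comparison of the members' proteins was not run.

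The members, gene lists and tests were chosen with earlier results of these data known. The rule for names takes all members, all called genes and the highest and lowest gene of each pathway list, and the 5 genes most like *Spred1*. Scaling was varied (TMM, RLE, library size), as were the filter (over 5 counts in 2 samples or more, or none), the test (edgeR's likelihood ratio test, DESeq2 1.42.0, limma-voom from limma 3.58.1) and the removal of 1, 2 or 3 RUVs factors before a likelihood ratio test. The replicate number was added as a block, and each library was left out in turn. The fits were tested on simulated data. Total counts were 51406011 to 81525977 per library, and replicates differed by more than counting error (chi-square over degrees of freedom, 12.0 to 53.8). Nothing links samples with the same replicate number, whose deviations correlated at -0.08 to 0.07 (other numbers at -0.20 to 0.19), so that they were not treated as pairs.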

Additional observations from a re-analysis of the deposited data

Results flagged for a closer look

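In 5 of 54 groups of 4 libraries checked, 1 library lay far from the other 3 by Dixon's criterion, which chance meets in about 5% of groups, and none of the 14 groups of the Sprouty and Spred genes was among them. That 5% holds for groups not chosen by value. The 5 genes below were each named as the highest or lowest of a list, a choice that can favour a stray library. *Rasa1* was at 79.8 CPM in homecage replicate 1, where the others held 88.4 to 89.7 CPM. *Vegfa* was at 20.5 CPM in homecage replicate 3, beside 29.0 to 30.0 CPM in the others. *Egfr* was at 13.7 CPM in homecage replicate 2, beside 21.3 to 22.2 CPM. *Rps6ka1* was at 6.02 CPM in SOR replicate 1, beside 7.56 to 7.85 CPM. *Btg2* was at 14.9 CPM in SOR replicate 4, beside 11.2 to 11.7 CPM. Without that library the log2 fold change of *Egfr* went from 0.27 to 0.13, that of *Vegfa* from 0.43 to 0.32, that of *Rasa1* from -0.23 to -0.27, that of *Rps6ka1* from -0.18 to -0.10 and that of *Btg2* from -0.06 to -0.17. None of these 5 genes passed the quasi-likelihood test between the groups.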

How the results depend on the processing

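All 7 members kept the sign of their log2 fold change in the 12 alternatives with all libraries and in the 8 fits with 1 library left out, but small values moved: *Spred2* ran from 0.02 to 0.10, *Spred3* from 0.00 to 0.09 and *Spry1* from -0.23 to -0.07 with a library left out. The number of members past the threshold, 1 as reported, was 0 with library size scaling and with the replicate block, and 2 (*Spred1* and *Spry4*) with DESeq2 and with 1, 2 or 3 RUVs factors. It was 0 to 1 with a library left out. *Spred1* passed in 10 of 12 alternatives, with log2 fold changes of 0.24 to 0.26; the exceptions were library size scaling (0.25, adjusted p = 0.0659) and the replicate block (0.24, adjusted p = 0.135). With a library left out its log2 fold change was 0.23 to 0.26, and the call held only without SOR replicate 4. *Spry4* passed in 4 of 12 alternatives (log2 fold change 0.41 to 0.46) and in 0 of 8 fits with a library left out. *Spry1*, *Spry2*, *Spry3*, *Spred2* and *Spred3* passed in none. The other ERK pathway genes past the threshold, 8 as reported, were 15 with DESeq2, 15 with 1 or 2 and 16 with 3 RUVs factors, and 6 with the replicate block, which ended the calls of *Egr1* (adjusted p = 0.0591) and *Mcl1* (adjusted p = 0.0624). They were 7 to 8 with a library left out. Over all genes the 68 calls became 214 with the likelihood ratio test, 442 with DESeq2, 305, 500 and 508 with 1, 2 and 3 RUVs factors, 40 with the replicate block, and 30 to 55 with a library left out. The share of calls that were higher, 88.2% as reported, was 67.8% with the likelihood ratio test, 72.9% with DESeq2 and 65.6%, 60.6% and 57.7% with 1, 2 and 3 RUVs factors. DESeq2, the likelihood ratio test and the RUVs fits also differ from the quasi-likelihood test in how they estimate the spread, and the cause of the differences was not tested. Counting error was 4.34% to 5.08% for *Spry1*, *Spry3* and *Spry4*, whose biological coefficients of variation were 13.1%, 10.9% and 11.9%.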
